A study of Caenorhabditis elegans with 4 samples.

Results

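Chromosome II of Caenorhabditis elegans carried 267 of the 1926 regions at which the transcription factor LSY-2 was mapped in whole L4 larvae. The regions were formed from every peak on chromosome II in the 3 deposited lists, by merging peaks that overlapped by at least 1 bp. Replicate 1 contributed 135 peaks on II, replicate 2 contributed 155 and a list of the whole series contributed 268, or 558 peaks in all. That last list, called series-wide below, is labelled combined and may hold the reads of both replicates. Its support may therefore not be independent of theirs. The merged regions covered 241.7 kb, which is 1.58% of the span of II up to its last listed base, 15263566. All positions follow WormBase build WS180, and the genes and the DNA sequence at these positions were not analysed here.

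Chromatin immunoprecipitation with sequencing (ChIP-seq) was run on strain OP240, in which lsy-2 is expressed from a bombarded transgene with TY1, EGFP and FLAG tags. All samples carry the unc119(ed3) allele and the transgene wgIs240, which joins lsy-2::TY1 EGFP FLAG to a copy of unc119, and all were L4 hermaphrodites grown at 20 degrees and crosslinked with 2% formaldehyde. The study has 4 samples, which are 2 LSY-2 ChIP libraries made with an affinity-purified goat antibody to GFP and 2 input libraries of total chromatin. The input libraries were not analysed here, and the samples include no untagged strain. The authors' peak calls may already draw on the inputs, which was not tested. Whole animals were used, so the cells in which a region was bound cannot be told apart, and nothing in the labels says that the libraries came from separate cultures.

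LSY-2 is a C2H2 zinc finger protein known from the ASE pair of taste neurons, whose left and right members it helps to make different through the microRNA lsy-6. Zinc finger factors of this kind bind DNA directly and are usually found at promoters and enhancers. The autosomes of C. elegans are known to be organised into a gene-rich centre with little recombination and 2 arms that recombine more and hold more repeats. Chromosome II follows that layout. The centre and arms named below are set by length alone, not by recombination, repeats or gene content. Their limits need not match those of the known layout.

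The value given for each peak is the authors' q value from the peak caller PeakSeq, shown here as −log10 q, so that a higher number is a stronger call. The median peak on II had 6.66 in replicate 1, against 7.61 elsewhere. For replicate 2 the medians were 7.37 on II and 7.28 elsewhere, and for the series-wide list 7.36 on II and 7.33 elsewhere. Peaks of II were thus lower at the median than those elsewhere in replicate 1 alone, a description with no test. No read counts are in the lists, so the depth behind each peak is unknown, and q values of different lists may differ in scale.

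Both replicates held 105 of the 267 regions of II, a share of 39.3% (exact Clopper-Pearson 95% interval 33.4 to 45.5), and every one of these 105 was also in the series-wide list. Over all chromosomes the share of regions in both replicates was 38.1%. On the other chromosomes it was 37.9%, and the difference between II and the others was 1.47 percentage points (Newcombe 95% interval −4.67 to 7.87; Fisher's exact p = 0.68, adjusted p = 0.81). Of the remaining regions of II, 37 were in replicate 2 and the series-wide list, 16 in replicate 1 and the series-wide list, and 1 in replicate 2 alone. The other 108 (40.4%, 34.5 to 46.6) were in the series-wide list only, against 43.0% over all chromosomes. That share was 43.5% on the other chromosomes, and the difference of −3.01 percentage points (−9.20 to 3.42) did not pass Fisher's exact test (p = 0.39, adjusted p = 0.63). Intervals and tests throughout take regions as independent and cover counting error only. The 13 tests made on II were adjusted together by Benjamini-Hochberg, and 0 of 13 passed at an adjusted p of 0.05. With no adjustment, 2 of 13 had a p under 0.05, both exact binomial tests on position along the chromosome that are given below with their values.

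Support by both libraries went with strength. Each region was ranked by its highest −log10 q in any list. The 50 strongest regions of II, with values from 211.5 to 21.8, were all held by both replicates. Among ranks 51 to 100 the number was 38 of 50, among ranks 101 to 150 it was 15, and among ranks 151 to 200 it was 2. None of the 67 weakest regions, at 4.83 or less, was in both replicates, and 59 of them were in the series-wide list alone. The 105 regions of both replicates were a median of 977 bp wide, and their highest −log10 q had a median of 17.8, with quartiles 11.5 and 34.6. The 108 regions of the series-wide list alone were 430.5 bp wide at the median, and their −log10 q had a median of 4.79, with quartiles 4.13 and 5.85. A list holds only peaks past its own threshold, so strength and support are not independent measures, and no test was made.

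**Figure D1:**
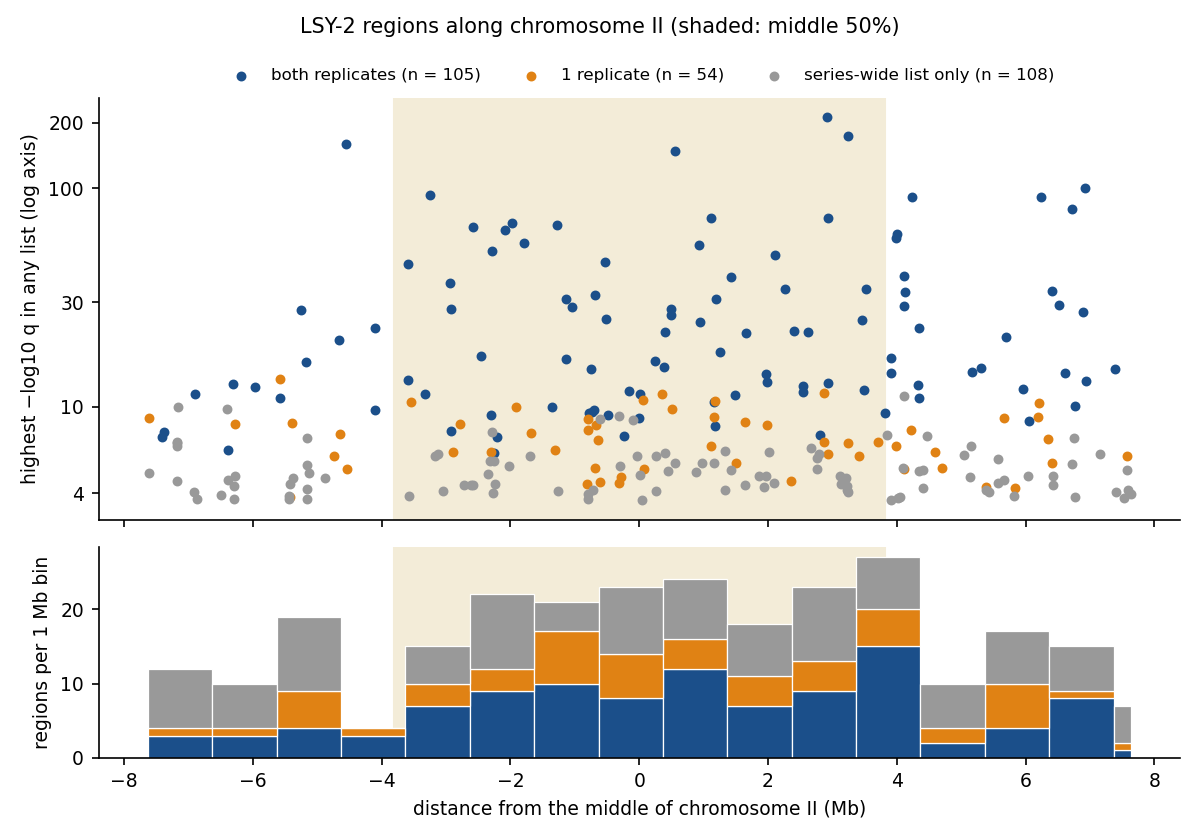
Upper panel: the highest −log10 q in any list (log axis) of each of the 267 regions, by distance from the middle of chromosome II in Mb; lower panel: regions per 1 Mb bin, stacked by the lists that hold them. The shaded middle 50% holds 151 regions, the fullest bin (27 regions) lies across its right edge, and the bin with the fewest regions (4) lies across its left edge.

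The strongest region of II in both replicates lay in the centre of the chromosome at 10867157 to 10869716 and was 2560 bp wide. Its −log10 q values were 122 (replicate 1), 132 (replicate 2) and 174 (series-wide list). It ranked first on II in each replicate and second in the series-wide list. The next was 3076562 to 3077764 in the left arm, with 103, 116 and 160 in the same order of lists. The third, at 8184226 to 8185988 in the centre, had 102, 122 and 149. These 2 regions had the same mean rank over the replicates, because replicate 2 put them in the other order. The first 3 regions stood clear of the rest of II in both libraries, because the fourth, 14560887 to 14561934 near the right end, reached 70.8 (replicate 1), 88.9 (replicate 2) and 100.6 (series-wide list).

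The fifth region, 4375878 to 4377454, was the only one of the first 5 with a higher value in replicate 1 (59.8) than in replicate 2 (57.5), and it had 93.6 in the series-wide list. The region at 10562912 to 10563964 had 43.7, 55.0 and 72.8 in replicate 1, replicate 2 and the series-wide list. The region at 11874126 to 11875102 had 52.0, 48.1 and 91.7 in these lists. Those 2 regions and the next shared a mean rank of 7, so their order is not resolved. The next, at 13871926 to 13873156, had 49.6, 54.8 and 91.1. The region at 14348891 to 14351213 ranked ninth in each replicate, with 39.7, 47.1 and 80.0 in the same order of lists.

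The tenth region was unlike the others. At 10541884 to 10552978 it had only 34.3 in replicate 1 and 43.1 in replicate 2, yet its 211.5 was the highest series-wide value on II. It was 11095 bp wide, the widest of all 1926 regions in the series, where the next widest, on another chromosome, was 9446 bp. Just outside the 10 named regions, the eleventh at 5054735 to 5056238 had 38.2 in replicate 1 and 37.6 in replicate 2, so the replicates put the tenth and eleventh in opposite order. Of the 10 best-ranked regions, 5 lay in the centre of II, 4 in the right arm and 1 in the left arm, and 7 of 10 lay within 10000 bp of another region. Over all 267 regions of II, 56.6% lay in the centre, 26.6% in the right arm and 16.9% in the left arm. Of these 267, 55.8% lay within 10000 bp of another region, and no difference was tested. The median width of the 10 best-ranked regions was 1404 bp, with a range from 977 to 11095.

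The replicates ordered their overlapping peaks on II alike. Peaks with no partner in the other list, 17 of 135 in replicate 1 and 39 of 155 in replicate 2, are left out. Over 122 overlapping pairs of peaks on II, Spearman's rho of −log10 q was 0.82 and Pearson's r was 0.96. On the other chromosomes rho was 0.84 over 664 pairs and r was 0.95. These are relations across peaks of 1 pair of libraries, given as descriptions. Replicate 2 had the higher −log10 q in 79 of the 122 pairs on II (64.8%, 55.6 to 73.2) and in 446 of the 664 pairs elsewhere (67.2%, 63.5 to 70.7). The median difference on II, replicate 2 minus replicate 1, was 1.43 units (quartiles −0.62 and 4.43).

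The paired peaks also lay close together. Their midpoints on II were a median of 72.8 bp apart (quartiles 30.4 and 180), against 60.3 bp on the other chromosomes, and 56.6% of the pairs on II were within 100 bp, against 68.7% elsewhere. A median of 72.9% of the joint span of a pair was covered by both peaks on II, and 78.5% elsewhere. These differences were not tested. Long stretches that 1 library lists as a single peak and the other as several, described below, enter these pairs more than once.

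In replicate 1, 118 of 135 peaks on II overlapped a peak of replicate 2, a share of 87.4% (80.6 to 92.5), and on the other chromosomes the share was also 87.4% (84.9 to 89.7). In replicate 2, 116 of 155 peaks on II overlapped one of replicate 1 (74.8%, 67.2 to 81.5), against 73.9% (70.9 to 76.8) elsewhere. The strongest peaks of II were shared without exception: the best 66 of replicate 1 and the best 68 of replicate 2 each had a partner. The best peak of replicate 1 with no partner lay at 9619084 to 9620509, with a −log10 q of 7.13. The best of replicate 2 with no partner lay at 1348706 to 1349480, with 8.30. The series-wide list overlapped all 135 peaks of replicate 1 on II and 154 of 155 of replicate 2.

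**Figure D2:**
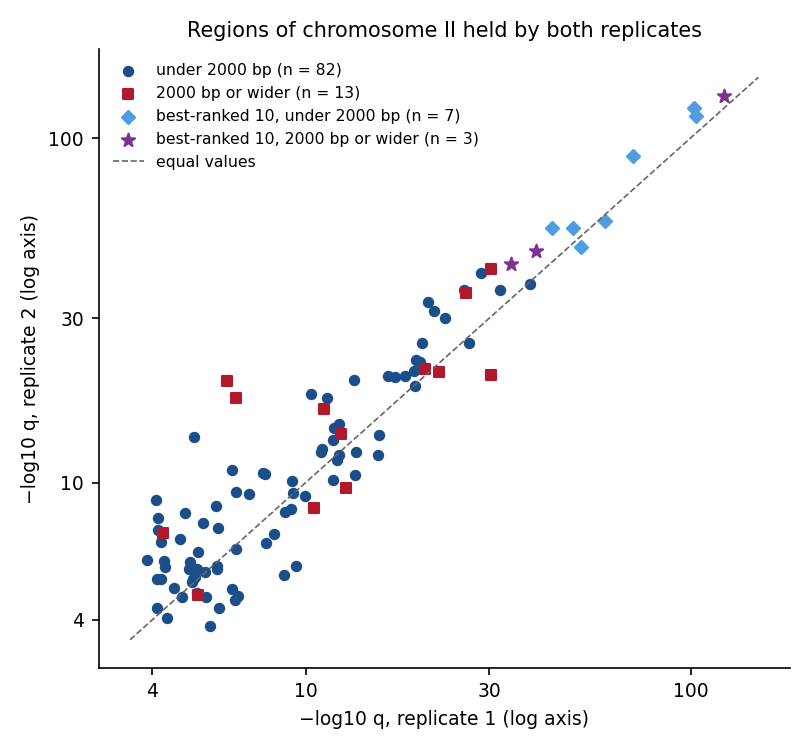
−log10 q in replicate 1 (x) and replicate 2 (y) of the 105 regions of II held by both replicates, both on log axes, with the line of equal values. The best-ranked 10 regions lie at the upper end, with 8 of 10 above the line. Replicate 2 was the higher in 64.8% of all 122 overlapping pairs of peaks on II.

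No region with less than full support exceeded 13.4 in any list. Among those of replicate 1 and the series-wide list, the strongest was 2054685 to 2056000 in the left arm, at 4.48 in replicate 1 and 13.4 series-wide. Among those of replicate 2 and the series-wide list it was 10502363 to 10503133 in the centre, at 6.50 in replicate 2 and 11.5 series-wide. The strongest region of the series-wide list alone was 11742556 to 11743540 in the right arm, at 11.1, which lay in a group beside 3 regions of both replicates. The single region of replicate 2 alone, 2215261 to 2215270, was 10 bp long, with a −log10 q of 3.86. The first listed region of II, 18784 to 19517, and the last, 15262894 to 15263566, were both in the series-wide list alone, at 4.94 and 3.96.

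The centre of II, taken as the middle 50% of its span (3815893 to 11447675), held 151 of 267 regions, or 56.6% (50.4 to 62.6). The share of regions in the middle 50% was 61.2% over all autosomes. An even spread gives 50%, and the exact binomial test against it gave p = 0.037, which did not pass after adjustment (adjusted p = 0.24). On the other autosomes the central share was 62.2% (59.5 to 64.8), a difference for II of −5.63 percentage points (−12.2 to 0.77; Fisher's exact p = 0.098, adjusted p = 0.27). Single autosomes other than II ranged from 51.7% on IV to 73.1% on V, so II lay inside their range.

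The central share was also taken list by list, with no test of the differences. It was 62.2% (53.5 to 70.4) for peaks of replicate 1 on II, 62.6% (54.5 to 70.2) for those of replicate 2 and 56.7% (50.6 to 62.7) for the series-wide list. Regions of both replicates were central in 61.9% of cases (65 of 105), and regions of the series-wide list alone in 49.1% (53 of 108). With only regions of both replicates, defined from the replicate lists alone, the central share was 62.5% on II and 62.6% on the other autosomes.

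With the centre as the middle 50%, the left arm of II held fewer regions than the right, but the difference did not pass its test. The left arm held 45 regions, or 11.8 per Mb (exact Poisson 95% interval 8.60 to 15.8), and the right arm, of the same length, 71, or 18.6 per Mb (14.5 to 23.5). The centre held 19.8 per Mb (16.8 to 23.2). The left arm thus had 38.8% of the arm regions (29.9 to 48.3), which did not pass the exact binomial test against 50% after adjustment (p = 0.020, adjusted p = 0.24). This share depended on where the centre was taken to end. It was 38.7% with a centre of 40% and 47.1% with a centre of 60% (exact binomial p = 0.67 for the latter). The left arm also held fewer regions of both replicates (13 of 45, against 27 of 71 in the right arm), and 0 of its regions were 2000 bp or wider, against 4 in the right arm. Its median highest −log10 q was 6.60, against 7.12 in the right arm and 8.16 in the centre. These contrasts between the arms in support, width and strength were not tested.

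Within II, regions of both replicates made up 43.0% of the centre (65 of 151) and 34.5% of the arms (40 of 116), a difference of 8.56 percentage points (−3.25 to 19.9; Fisher's exact p = 0.17, adjusted p = 0.31). Regions with a q of 1e-10 or less in at least 1 list, 36.1% of all regions in the series, were 37.7% of the centre and 32.8% of the arms (difference 4.99 points, −6.60 to 16.2; Fisher's exact p = 0.44, adjusted p = 0.64). On II as a whole 95 regions met that limit, or 35.6%, against 36.2% on the other chromosomes (difference −0.65 points, −6.62 to 5.69; Fisher's exact p = 0.89, adjusted p = 0.97). The values on either side of the limit on II were 10.0 and 9.95. Distance from the middle of II and strength were weakly related across the 267 regions (Spearman's rho −0.14, a description).

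**Figure D3:**
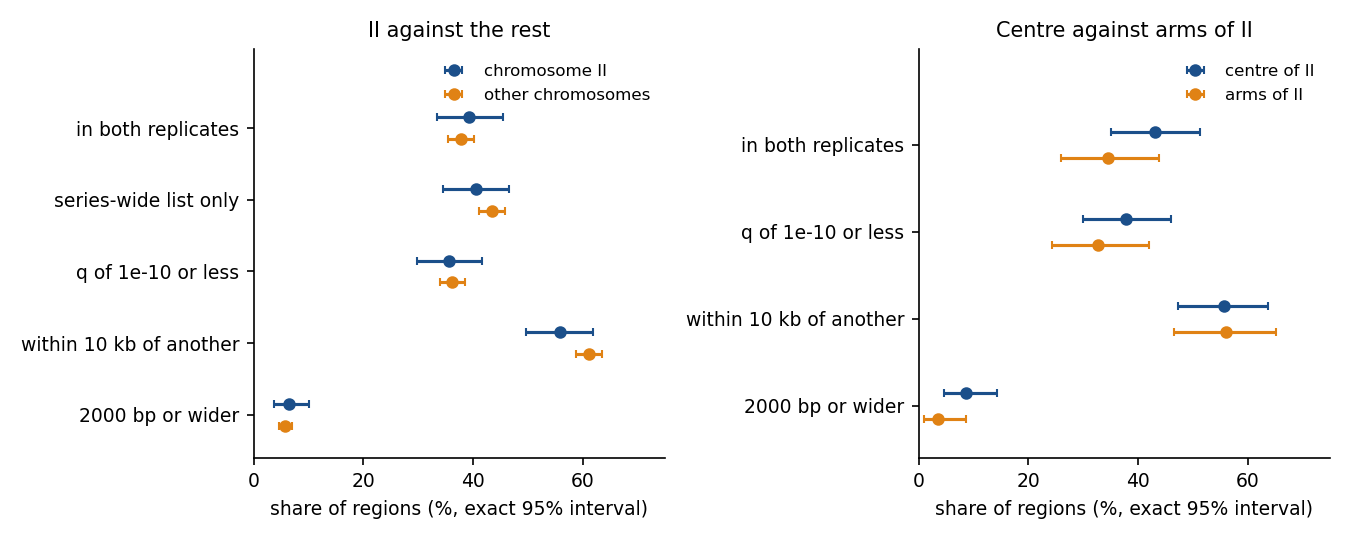
Shares of regions (%) with exact 95% intervals: left, chromosome II above the other chromosomes for 5 properties; right, the centre above the arms of II for 4 properties. The intervals of each pair overlap, and 0 of the 9 differences shown passed its test.

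In bins of 1 Mb the regions of II varied from 4 to 27, with a median of 18 over the 15 whole bins (mean 17.3 ± 6.35, SD over bins). The variance over these bins was 2.33 times the mean, more than regions placed evenly and independently would give. Intervals that take regions as independent may therefore be too narrow. The bin from 11 to 12 Mb was the fullest, with 27 regions, 15 of them in both replicates, and it lies across the right edge of the centre. The bin beside it, from 12 to 13 Mb, held 10 regions with 2 in both replicates. From 5 to 9 Mb each bin held between 21 and 24 regions. The fewest were in the bin from 3 to 4 Mb, with 4 regions, of which 3 were in both replicates.

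The longest stretches of II without a listed peak lay side by side around that bin. The longest was 519.8 kb (3524337 to 4044157) and the next 433.4 kb (3087965 to 3521398). Between them stood a pair of regions, 3521399 to 3521744 and 3523570 to 3524336, both held by all 3 lists. The first of the pair was weak, at 5.49 in each replicate and 9.68 series-wide. The second had 12.2 (replicate 1), 14.8 (replicate 2) and 22.9 (series-wide list). The 956.2 kb from 3087965 to 4044157 thus held 2 regions in 6.26% of the span of II. The third-longest gap was 393.1 kb, from 1661623 to 2054684 in the left arm, whereas the longest runs across the left edge of the centre. Whether reads could be placed uniquely in these stretches was not tested.

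Over all 266 gaps of II, the distance between neighbouring regions had a median of 25561.5 bp (quartiles 4758.75 and 82849), against 20118.5 bp on the other chromosomes. Gaps of 10000 bp or less made up 34.2% on II (91 of 266) and 39.1% on the other chromosomes. Gaps of 100000 bp or more made up 17.7% on II (47 of 266) and 14.8% on the other chromosomes. These differences between gaps were not tested. II held 17.5 regions per Mb (15.5 to 19.7) and the other chromosomes 19.6 (18.6 to 20.5), and II ranked 5 among the 6 chromosomes in density. By an exact binomial test on the counts, the densities had p = 0.093 and adjusted p = 0.27.

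Regions separated by 10000 bp or less were taken as groups. On II, 149 of 267 regions (55.8%, 49.6 to 61.9) were in a group, against 60.4% over all chromosomes. On the other chromosomes the share was 61.2%, a difference for II of −5.38 percentage points (−11.8 to 0.92; Fisher's exact p = 0.11, adjusted p = 0.27). Taken singly, those chromosomes ranged from 54.1% on X to 68.2% on III, so II lay inside their range. Grouped regions were 55.6% of the centre of II and 56.0% of its arms (difference −0.41 points, −12.2 to 11.5; Fisher's exact p = 1). The 58 groups on II comprised 39 pairs, 10 groups of 3, 4 groups of 4 and 5 groups of 5. No group on II had 6 or more regions, whereas 12 of the 369 groups on the other chromosomes did, and this difference was not tested.

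Grouped and single regions were alike in support: 59 of 149 grouped regions (39.6%) and 46 of 118 single regions (39.0%) were in both replicates. Grouped regions were the wider, with a median of 799 bp against 550 bp for single regions. Of the 58 groups, 38 held at least 1 region of both replicates, 17 held at least 2, and 8 consisted of regions of the series-wide list alone. Of the 108 regions of the series-wide list alone, 28 lay in a group with a region of both replicates. Over all 108, the median distance to the nearest region of both replicates was 31350.5 bp.

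Groups of 4 or more regions made up 9 of the 58 groups on II and 71 of the 369 on the other chromosomes. This difference was not tested. The 9 groups of 4 or 5 regions lay in all parts of II, with 3 in the left arm, 4 in the centre and 2 in the right arm. They differed in make-up. The group at 456379 to 461635 packed 5 regions into 5.26 kb, all of the series-wide list alone, with −log10 q from 4.54 to 10.0. The group at 1341281 to 1350442 held 4 regions, of which 1 was also in replicate 2. The group at 2455479 to 2479521 had 1 region of both replicates, at its left end, followed by 4 of the series-wide list alone. In none of these left arm groups were 2 regions in both replicates.

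Both right arm groups held more regions of both replicates than that. At 11742556 to 11759612, 3 of 5 regions were in both replicates. The strongest of them, 11748842 to 11750424, had 20.1 (replicate 1), 25.3 (replicate 2) and 39.8 (series-wide list). At 11967275 to 11980462, 3 of 4 regions were in both replicates, and the strongest, 11979549 to 11980462, had 11.0, 12.5 and 22.9 in the same lists.

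The 4 central groups included the best-ranked region and the widest one. At 10862056 to 10872903, the region with 122 and 132 in the replicates stood with 3 weak neighbours, none above 6.82. At 10541884 to 10563964, 4 regions covered 16268 of 22081 bp, the densest coverage among the groups of 4 or 5. Its ends were strong: the 11095 bp region on the left and, on the right, 10562912 to 10563964 with 43.7 in replicate 1 and 55.0 in replicate 2. Between them lay 10555265 to 10557593, with 5.26, 4.73 and 12.8 in replicate 1, replicate 2 and the series-wide list, and 10558374 to 10560164, held by replicate 2 (5.19) and the series-wide list (6.08). The other central groups were 5321669 to 5346641, with 2 of 5 regions in both replicates, and 6835485 to 6848351, with 1 of 5 in both and none above 9.30.

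Broad regions, 2000 bp or wider, numbered 17 on II (6.37%, 3.75 to 10.0), against 5.82% over all chromosomes. The share was 5.73% on the other chromosomes, a difference of 0.64 percentage points (−2.01 to 4.37; Fisher's exact p = 0.67, adjusted p = 0.81). The narrowest of them was 2034 bp and the widest region below the limit was 1831 bp. They took up 61.9 kb, or 25.6% of the bases covered on II. In the centre 13 of 151 regions were broad and in the arms 4 of 116 (8.61% and 3.45%; difference 5.16 points, −1.02 to 11.1; Fisher's exact p = 0.13, adjusted p = 0.28). Both replicates held 16 of the 17, and the exception, 7985730 to 7987763, was in replicate 2 and the series-wide list. Width and strength went together across the 267 regions (Spearman's rho 0.65, against 0.68 on the other chromosomes; descriptions), and the broad regions had a median highest −log10 q of 39.1, against 6.87 for the others. In regions of all 3 lists the highest value was always the series-wide one. A long series-wide peak also sets the merged width, so width and this measure are not independent. Among the 16 broad regions of both replicates, the order by mean replicate rank ran from 1 to 93 of 105.

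**Figure D4:**
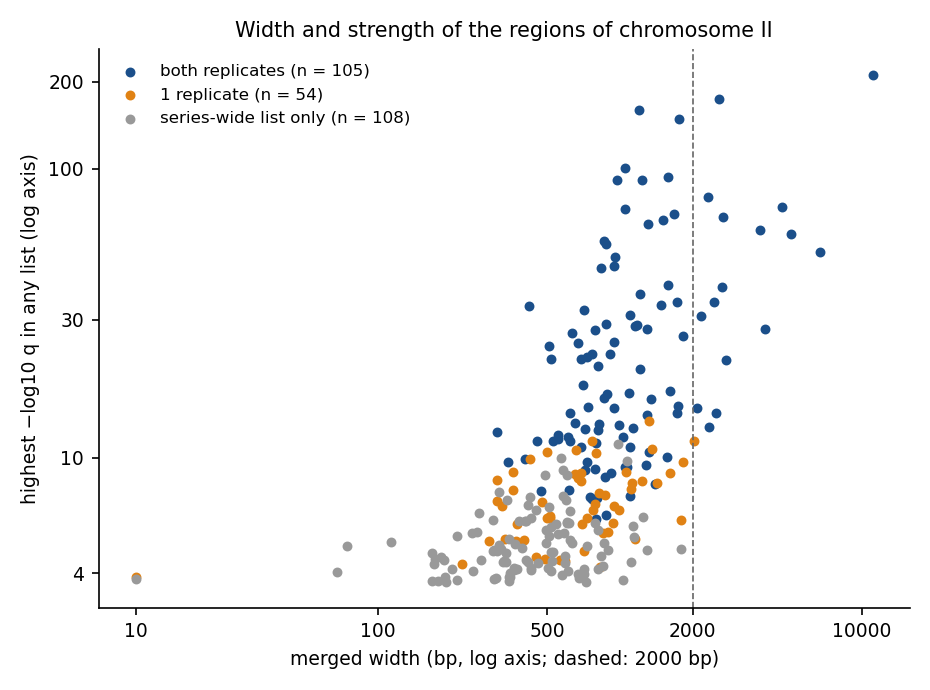
Merged width in bp (x) and highest −log10 q in any list (y), both on log axes, of the 267 regions of II, coloured by the lists that hold them. Regions of the series-wide list alone sit at the lower left, and 16 of the 17 regions right of the 2000 bp line are in both replicates.

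Each of the 6 widest regions was 1 peak in the series-wide list and 2 or more peaks in at least 1 replicate. The 11095 bp region held 5 peaks of replicate 1, with −log10 q from left to right of 30.6, 6.31, 34.3, 5.74 and 22.7. Replicate 2 split it into 4 peaks, with 27.5, 16.7, 43.1 and 20.4. The series-wide list had 1 peak over the same stretch, with 211.5. The replicate peaks covered 88.9% of it in replicate 1 and 91.0% in replicate 2. The replicates listed different numbers of breaks between peaks inside it.

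The second-widest, 5334623 to 5341346 (6724 bp), held 4 peaks of replicate 1, none above 6.58, and 3 of replicate 2, the highest at 17.6. Its single series-wide peak had 51.7. Coverage was lower here, at 46.7% in replicate 1 and 70.6% in replicate 2. The third, 11615924 to 11621021 (5098 bp), had its strongest peak at the right in both replicates, at 22.3 and 20.9, and 59.4 as 1 series-wide peak.

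The fourth, 8743074 to 8747768 (4695 bp), was 1 peak of 4329 bp in replicate 1 (30.3) and 2 peaks of like strength in replicate 2 (20.2 and 20.6), and it had 73.5 series-wide. The fifth, 8128073 to 8132043 (3971 bp), was a pair of peaks in each replicate, with 5.17 and 10.5 in replicate 1, 7.83 and 8.46 in replicate 2, and 28.0 as 1 series-wide peak. The sixth, 11633730 to 11637506 (3777 bp), was the other way round from the fourth, with 2 peaks in replicate 1 (11.8 and 26.2) and 1 in replicate 2 (35.4), and it had 61.5 series-wide. Altogether 11 regions of II held 2 or more peaks of at least 1 list, and 10 of these were broad.

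**Figure D5:**
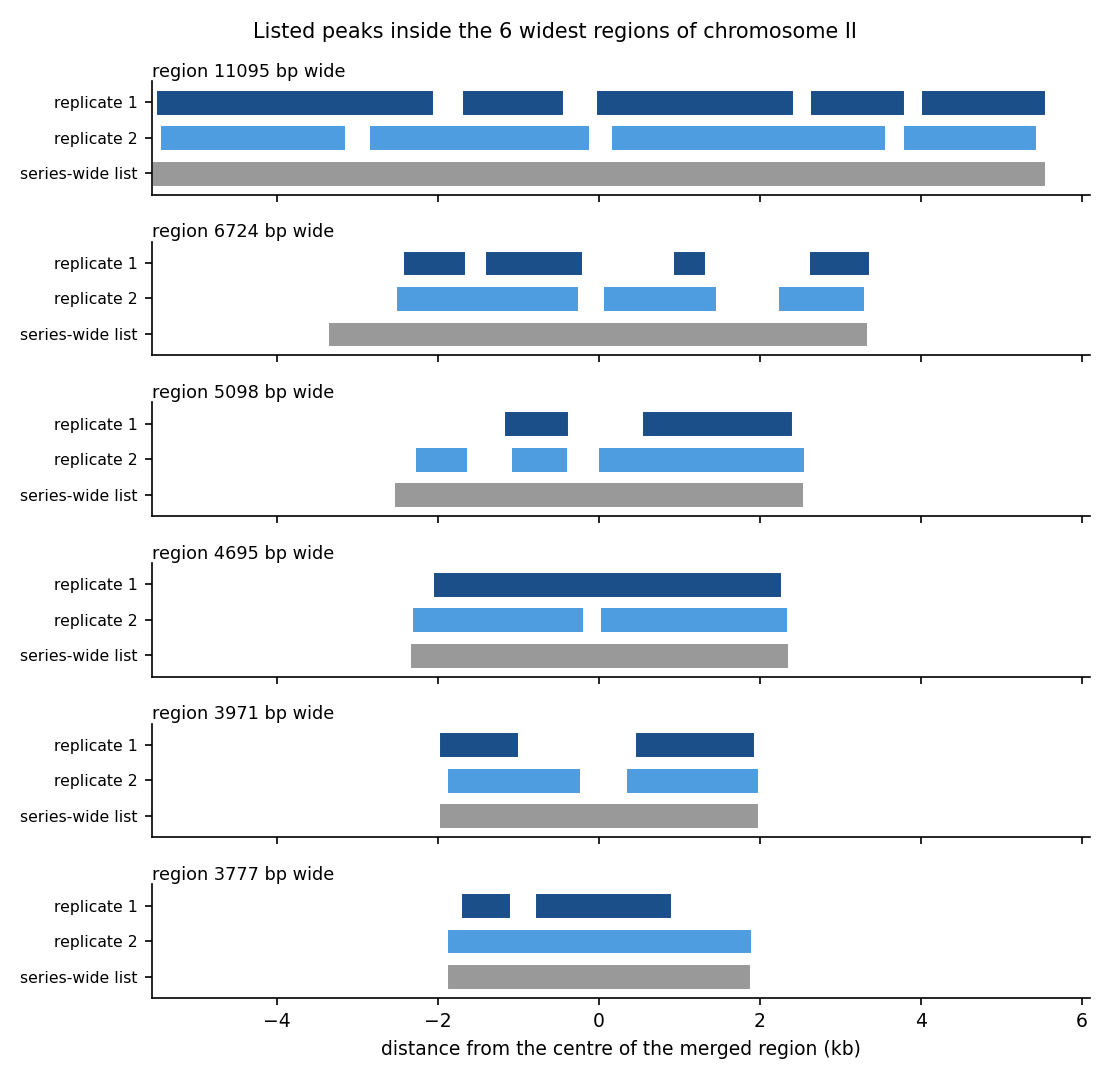
Peaks listed by replicate 1, replicate 2 and the series-wide list inside the 6 regions of II that are 3000 bp or wider, by distance in kb from the centre of each merged region. The series-wide list draws 1 peak across each region, while the widest region holds 5 peaks in replicate 1 and 4 in replicate 2.

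For the regions of all 3 lists, the series-wide −log10 q was above that of either replicate in 105 of 105 cases. It was a median of 0.90 times the sum of the replicates' highest values (quartiles 0.82 and 1.01). A list made from the reads of both replicates could give higher values than either replicate by construction. How the series-wide list was made is not stated. Where each list had 1 peak in the region, the ratio ran from 0.61 to 1.54 (median 0.88, 94 regions), and where a list had 2 or more it reached 2.73, in the 11095 bp region (median 1.28, 11 regions). Only the highest peak of each replicate enters the sum, which raises the ratio for split regions by construction. The ratio also takes q values of all lists as comparable, which the sources do not state.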

How the data were processed

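The 2 ChIP libraries each came with a deposited list of peaks, and 1 more list, labelled combined, belongs to the series. Positions are on WormBase build WS180 and peaks are from PeakSeq, per the file headers. The deposited score of a peak is a q-value set by the authors' caller. How reads were aligned and filtered, the threshold, software versions and the making of the series-wide list are not given in the sources at hand. Depth is unknown, as the lists hold no counts. Coordinates are 1-based.

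Overlapping peaks (at least 1 bp shared) of all lists were merged. The last listed end in any list stood for each chromosome's length. Shares were compared with two-sided Fisher's exact or exact binomial tests, adjusted over 13 tests (Benjamini-Hochberg), with Clopper-Pearson, Newcombe or exact Poisson 95% intervals. The merging and the tests of the central share and of the both-replicate share were tried on simulated data. The simulated both-replicate share was the same on every chromosome. The trial therefore could not show whether that test finds a difference. The simulated regions were not clustered and no list split them, so the simulation did not cover split peaks or groups. Medians and correlations across regions carry no test. Computations ran in Python 3.11.15 with SciPy 1.17.1, NumPy 2.4.6 and, for plots, matplotlib 3.10.9.

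The regions named are the 10 best by mean rank over both replicates, the 5 widest, groups of 4 or more, the 3 longest gaps, the best region of each incomplete support class, and the first and last. The sixth-widest region, the eleventh by rank, the broad region that lacks replicate 1, the pair between the longest gaps and the best peaks with no partner were named after their values were seen. The members, lists and tests were chosen with earlier results of these data known. Genes and sequences were not analysed, because the available gene table is of another build (WBcel235). Alternatives concerned the lists used, overlap, q and width limits, group distance, the centre and the comparison set.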

Additional observations from a re-analysis of the deposited data

How the results depend on the processing

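In 121 recomputations of the 13 tested results under 17 alternatives, 0 passed the threshold, as in the analysis given above (lowest adjusted p of any, 0.053), and 9 changed direction. With regions of both replicate lists only, the grouped share on II minus the others became 3.24 percentage points, and that of the centre minus the arms 8.10. With the better 50% of each list's peaks, centre minus arms became −2.71 points for the strong share and 11.8 for the grouped share. Centre minus arms of the grouped share was also positive with a centre of 40% (6.68), a centre of 60% (9.46) and a group distance of 5000 bp (1.27). Joining regions less than 2000 bp apart turned the broad share on II minus the others to −1.26, and a strong limit of 1e-20 turned the strong share to 1.57. The cause of these changes was not tested. The central share of II was 48.7% in the middle 40% (adjusted p = 0.053 against 40%, exact binomial test) and 67.4% in the middle 60% (adjusted p = 0.10 against 60%, exact binomial test), and the left share of arm regions was 47.1% when the centre was the middle 60%. With each group counted once, the central share of II was 56.8% (exact binomial p = 0.083, adjusted p = 0.33). The left share of arm regions was then 35.5% (exact binomial p = 0.015, adjusted p = 0.20). Spearman's rho of the replicates was 0.88 with reciprocal overlap of 50% and 0.87 in the better 50% of peaks. Without replicate 1 or without replicate 2 (each still merged with the series-wide list, which may hold its reads), no tested result changed direction or side. Results on support by both replicates were not defined there, nor with the series-wide list alone. No paired analysis was possible because every result comes from the ChIP arm; the input libraries with the same replicate numbers were not analysed here. The ChIP arm here means the peak lists used, none of which belongs to an input library. The authors' q values may already draw on the inputs, so these results need not be free of them. Whether they do was not tested. Absence from a list means only that a peak did not reach its threshold at an unknown depth.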

Other observations

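The series-wide −log10 q relative to the sum of both replicates varied among chromosomes. Its median was 0.90 on II (105 regions), the lowest of the 6, against 0.93 on III, 0.95 on IV, 0.98 on V, 0.98 on X and 1.18 on I. The difference was not tested.

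A few listed intervals of II were very short. There were 4 regions under 100 bp: 2215261 to 2215270 and 11646385 to 11646394 were 10 bp long, 15042938 to 15043005 was 68 bp and 2507790 to 2507864 was 75 bp. The first was in replicate 2 alone and the others in the series-wide list alone, all with a −log10 q of 4.95 or less. The region at 11646385 to 11646394 forms a pair with a broad region by the group distance used, so that pair rests on a 10 bp interval.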
